A study of Homo sapiens with 9 samples.

Results

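The transcripts of MYC and of 9 other genes of its MAX network were followed in A375R cells, a line of human melanoma cells made resistant to a BRAF inhibitor and kept in medium with that inhibitor, PLX4032, in every group. The 10 genes are MYC, MAX, MXD1, MXD3, MXD4, MXI1, MNT, MGA, MLX and MLXIP, chosen by gene name from a table of 62710 genes. All 10 were among the 15230 genes tested, those with a mean of at least 10 normalized counts over the 9 libraries. The cells received the vehicle DMSO, 10 µM VHL-r for 2 h or 10 µM R4VPL3-1 for 2 h, with 3 biological repeats each. VHL-r is the VHL-binding moiety alone, and R4VPL3-1 is the PROTAC-like molecule that joins a VHL binder to a binder of the ubiquitin ligase RNF4. The sample labels name the control libraries only as WT, 2 of the 3 control columns of the deposited table add a time of 2 h, and the design text gives DMSO as the control, and the name DMSO is used for them. For the R4VPL3-1 libraries the label names an L3 linker compound, which was taken as R4VPL3-1, the full molecule of the design text. All libraries came from 1 cell line, so the repeats measure the spread between cultures of that line.

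MYC is a transcription factor that drives growth and ribosome production and is unstable both as an mRNA and as a protein. It binds DNA only as a pair with MAX, at a short site named the E-box. The MXD proteins, MXI1, MNT and MGA compete for MAX and repress at the same sites, the MXD proteins, MXI1 and MNT through the SIN3 corepressor and MGA through a Polycomb complex, PRC1.6. MLX is a further hub, which pairs with some of the MXD proteins, with MNT and with MLXIP, also named MondoA, a glucose-sensing activator. A fall of MYC with a rise of MXD1 is known from differentiating cells as the MYC-to-MXD switch. In melanoma cells MYC is known to restrain senescence.

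The sequence just before the transcription start is shown for MXD1, the member with the largest rise, and for MXD4 and MLX, members that changed against DMSO in both treatments and whose window holds an E-box. Each run is the 250 bases before the RefSeq start on GRCh38.p14, written 5′ to 3′ on the gene's strand, and capitals mark the E-box CACGTG. The windows are chr2:69914859-69915108 on the plus strand for MXD1, chr4:2262110-2262359 on the minus strand for MXD4 and chr17:42566850-42567099 on the plus strand for MLX. The E-box begins 238 bases before the start in MXD4 and 50 bases before it in MLX, and the MXD1 window has none.
MXD1: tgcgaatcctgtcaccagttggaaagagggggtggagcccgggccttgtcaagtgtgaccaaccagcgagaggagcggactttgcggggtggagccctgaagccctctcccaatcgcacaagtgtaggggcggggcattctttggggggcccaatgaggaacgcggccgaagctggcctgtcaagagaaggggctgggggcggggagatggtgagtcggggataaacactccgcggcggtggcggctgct
MXD4: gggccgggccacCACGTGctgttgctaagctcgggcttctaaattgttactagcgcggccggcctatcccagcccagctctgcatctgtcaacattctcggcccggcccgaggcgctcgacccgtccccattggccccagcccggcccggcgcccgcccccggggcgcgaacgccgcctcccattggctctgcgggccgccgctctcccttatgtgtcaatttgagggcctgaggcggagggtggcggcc
MLX: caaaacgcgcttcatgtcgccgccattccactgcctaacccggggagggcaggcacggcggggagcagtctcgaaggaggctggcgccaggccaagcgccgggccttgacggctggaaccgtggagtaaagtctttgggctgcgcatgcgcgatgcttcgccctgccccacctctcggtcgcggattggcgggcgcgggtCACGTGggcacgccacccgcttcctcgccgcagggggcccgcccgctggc

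The set of 35116 RefSeq windows that was searched held 14 such windows for 9 of the members and none for MYC. An E-box lay in 3 of the 14 windows, those of MLX, MXD4 and MNT, and in 6.34% of all windows of the set, which have the same length. The AP-1 site TGANTCA was found in the MXD3 window and in 6.57% of all windows, and the cAMP response element TGACGTCA in the MLXIP window and in 1.65% of all windows. The heat shock motif GAANNTTC was found in 1 of the 3 MGA windows and in 5.78% of all windows. The GC box GGGCGG was in 11 of the 14 windows against 42.6% of all windows. Neither the ATF4 composite TTGCATCA nor the ETS motif CCGGAAGT was found in any of the 14 windows. Matches were searched on both strands. MXD1, with the largest rise, and MGA, which fell, had no E-box in their windows, whereas MXD4, which rose, and MLX, which fell, each had it. MYC, with the largest fall, had no window in the set searched, which does not show that RefSeq lacks a start for it. A part of the motif in these changes was not tested.

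Treatment with either compound moved 2 members most and in opposite directions, MYC down and MXD1 up. MXD3 and MXD4 rose less, MGA and MLX fell, and MAX, MXI1 and MNT did not pass the test in any comparison. Of the 10 members, 4 rose and 3 fell with VHL-r, and 3 rose and 3 fell with R4VPL3-1. Among all genes tested, 10.3% were called higher and 9.51% lower with VHL-r, and 13.1% higher and 11.8% lower with R4VPL3-1. Between the compounds, MXD1 was the only member called, against 1.14% of all genes called higher and 0.729% called lower in R4VPL3-1.

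**Figure D1:**
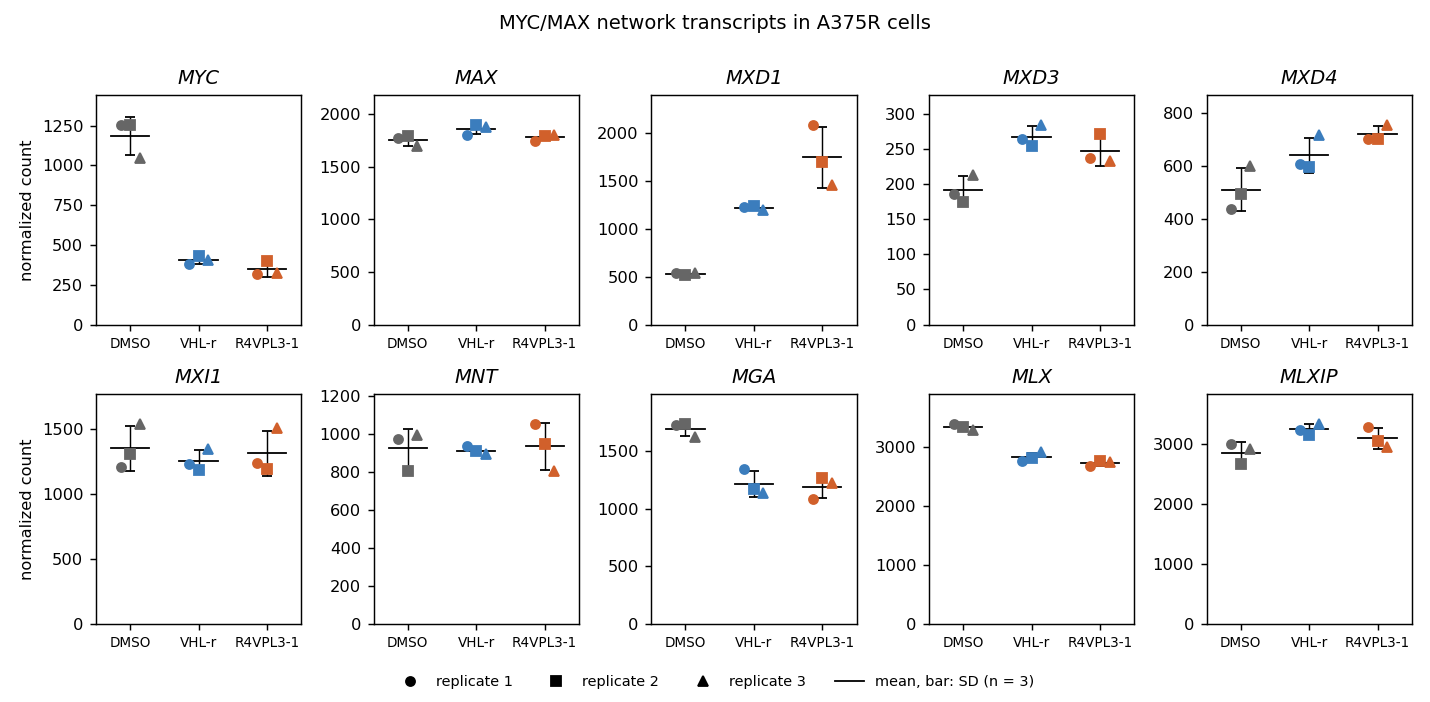
Normalized counts (y axis, from 0) of the 10 network members in the 9 libraries, with 1 panel per gene and the 3 treatments on the x axis. Points are libraries, with the marker giving the replicate number, lines are means and bars SDs of 3 libraries. MYC lay between 1049 and 1254 in DMSO and at or below 429.6 in every treated library, whereas MXD1 lay at or below 540.3 in DMSO and at or above 1196 in every treated library.

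MYC (ENSG00000136997, chromosome 8, 127735434 to 127742951, GRCh38) had 1253, 1254 and 1049 normalized counts in DMSO replicates 1, 2 and 3. With VHL-r it had 379, 429.6 and 408, and with R4VPL3-1 it had 320.3, 401 and 321. Every treated library lay below every DMSO library, and the ranges of the 2 treatments overlapped. The mean fell from 1185 ± 118.5 (SD, n = 3) in DMSO to 405.5 ± 25.2 with VHL-r, 2.92-fold lower (log2 fold change -1.54 ± 0.09 SE, limma adjusted p = 1.86e-10). With R4VPL3-1 it fell to 347.5 ± 46.3, 3.41-fold lower (log2 fold change -1.77 ± 0.09 SE, adjusted p = 9.8e-12). The change of MYC was larger than that of 99.1% of the genes tested with VHL-r and 99.0% with R4VPL3-1. Between the compounds the log2 difference was -0.23 with a 95% interval of -0.42 to -0.03, and it did not pass the adjustment over all genes (adjusted p = 0.37 by limma). Values are shares of each library's reads, so less RNA per cell and fewer cells of a kind in the culture cannot be told apart. SOX10, a lineage factor of melanoma cells, fell as well, from a mean of 17547 to 10199.7 with VHL-r (log2 fold change -0.79, adjusted p = 3.14e-09) and 8405 with R4VPL3-1 (-1.06, adjusted p = 1.56e-11), and its part in the change of MYC was not tested.

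Of the long noncoding RNAs beside MYC, PVT1 had a mean of 552 in DMSO, 597 with VHL-r and 692 with R4VPL3-1, and only the last differed from DMSO (log2 fold change 0.32, limma adjusted p = 0.0139). Without R4VPL3-1 replicate 1, the library with the highest PVT1 at 801, no neighbour of MYC was called higher. PCAT1 fell from a mean of 139 to 76.4 with VHL-r (log2 fold change -0.88, limma adjusted p = 0.000874) and 73.9 with R4VPL3-1 (-0.91, adjusted p = 0.000471). CASC11, at very few reads, had 3.63, 5.9 and 6.08 in DMSO, 3.0, 1.05 and 1.02 with VHL-r, and 0, 0.99 and 1.07 with R4VPL3-1, so that every treated library lay below every DMSO library, as for MYC, but it fell below the filter and was not tested. Of the relatives of MYC, MYCN was listed at 0 in all 9 libraries, and MYCL lay between 12.8 and 29.98 and was not called, although it was called higher with R4VPL3-1 without R4VPL3-1 replicate 2.

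MAX, the obligate partner (chromosome 14, 65006174 to 65102695, minus strand), had 1771, 1794 and 1697 normalized counts in DMSO, 1803, 1898 and 1879 with VHL-r, and 1749, 1798 and 1804 with R4VPL3-1. The VHL-r libraries all lay above the DMSO libraries, while those of R4VPL3-1 overlapped with them. The log2 fold change was 0.09 with VHL-r, with a 95% interval of -0.02 to 0.19, and 0.03 with R4VPL3-1, with an interval of -0.08 to 0.13. Neither passed the test (limma adjusted p = 0.265 and 0.77).

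MXD1 (ENSG00000059728, chromosome 2, 69897688 to 69942945, plus strand), the MAX partner best known from terminal differentiation, had 540.3, 513 and 533 normalized counts in DMSO. It had 1229.9, 1236 and 1196 with VHL-r and 2083, 1696 and 1455 with R4VPL3-1. The 3 groups did not overlap in any library, and the spread was widest with R4VPL3-1. The mean rose from 529 ± 14.4 (SD, n = 3) to 1221 ± 21.5 with VHL-r, 2.31-fold (log2 fold change 1.21 ± 0.09 SE, limma adjusted p = 2.51e-09). With R4VPL3-1 it rose to 1745 ± 317, 3.3-fold (log2 fold change 1.71 ± 0.09 SE, adjusted p = 6.03e-12). R4VPL3-1 gave 1.43 times the level of VHL-r at the same dose and time (log2 fold change 0.50, 95% interval 0.32 to 0.68, adjusted p = 0.00159). The difference between the compounds was larger than that of 96.0% of the genes tested. Without R4VPL3-1 replicate 1, which had the highest value, it was 0.36 and was still called (adjusted p = 0.0119).

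MXD4 (chromosome 4, 2247432 to 2262109, minus strand), another repressor of the MXD family, had 439.5, 493 and 599 normalized counts in DMSO, 609, 597 and 718 with VHL-r, and 704, 702 and 756 with R4VPL3-1. All R4VPL3-1 libraries lay above all DMSO libraries, but VHL-r replicate 2 lay just below DMSO replicate 3. MXD4 rose 1.41-fold with R4VPL3-1 (log2 fold change 0.51, limma adjusted p = 0.000412) and 1.26-fold with VHL-r (0.34, adjusted p = 0.0158). The VHL-r call was lost without DMSO replicate 1 (0.23, adjusted p = 0.11), without DMSO replicate 2 (0.32, adjusted p = 0.059) or without VHL-r replicate 3 (0.25, adjusted p = 0.0909).

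MXD3 (chromosome 5, 177301461 to 177312757, minus strand), the member of the family linked to the S phase of the cell cycle, was the lowest in count of the 10. It had 185, 174 and 213 in DMSO, 264, 253 and 284 with VHL-r, and 236, 272 and 232 with R4VPL3-1. Both treated groups lay above the DMSO group without overlap. The rise was 1.4-fold with VHL-r (log2 fold change 0.49, limma adjusted p = 0.00232) and 1.29-fold with R4VPL3-1 (0.37, adjusted p = 0.0141). The R4VPL3-1 call was lost without DMSO replicate 2 (0.31, adjusted p = 0.0808) or R4VPL3-1 replicate 2 (0.30, adjusted p = 0.086). Another gene on the same strand shares 19.5% of the exon bases of MXD3, where the counting could have left reads unassigned.

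MXI1 (chromosome 10, 110207605 to 110287365, plus strand), a further MXD-type repressor, had 1206, 1311 and 1540.4 normalized counts in DMSO, 1233, 1184 and 1351 with VHL-r, and 1240.0, 1194 and 1512 with R4VPL3-1. Replicate 3 was the highest library in each group, and the groups overlapped. The log2 fold change was -0.10 with VHL-r (95% interval -0.28 to 0.08) and -0.04 with R4VPL3-1 (-0.22 to 0.14), and neither passed the test. MNT (chromosome 17, 2384073 to 2401104, minus strand), the widely expressed antagonist of MYC, had 973, 805 and 997 in DMSO, 936, 912 and 893 with VHL-r, and 1053, 950.1 and 807 with R4VPL3-1. Its groups overlapped throughout, with a log2 fold change of -0.01 with VHL-r (95% interval -0.19 to 0.17) and 0.02 with R4VPL3-1 (-0.17 to 0.20).

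MGA (ENSG00000174197, chromosome 15, 41621134 to 41773081, plus strand), the large MAX partner of PRC1.6, had 1723, 1734 and 1625 normalized counts in DMSO, 1341, 1168 and 1135 with VHL-r, and 1082, 1267 and 1223 with R4VPL3-1. Every treated library lay below every DMSO library. MGA fell 1.39-fold with VHL-r (log2 fold change -0.48 ± 0.07 SE, limma adjusted p = 2.67e-05) and 1.42-fold with R4VPL3-1 (-0.51 ± 0.07 SE, adjusted p = 9.15e-06). Both falls were larger than the change of at least 86.0% of the genes tested.

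In the MLX branch, MLX (chromosome 17, 42567072 to 42573239, plus strand) had 3389, 3335 and 3298 normalized counts in DMSO, 2759.97, 2813 and 2911 with VHL-r, and 2678, 2763 and 2749 with R4VPL3-1. The treated libraries all lay below the DMSO libraries. The fall was small and even, 1.18-fold with VHL-r (log2 fold change -0.24, limma adjusted p = 0.000425) and 1.22-fold with R4VPL3-1 (-0.29, adjusted p = 4e-05). MLXIP (chromosome 12, 122078756 to 122147344, plus strand), the partner of MLX known as MondoA, had 2992, 2663 and 2908 in DMSO, 3239, 3155 and 3331 with VHL-r, and 3287, 3048 and 2953 with R4VPL3-1. MLXIP rose 1.14-fold with VHL-r (log2 fold change 0.18, adjusted p = 0.0164), and the call was lost without DMSO replicate 2 (0.14, adjusted p = 0.126) or VHL-r replicate 3 (0.17, adjusted p = 0.0577). With R4VPL3-1, where the groups overlapped, its log2 fold change of 0.12 did not pass the test (adjusted p = 0.117). MLXIPL, the other glucose-sensing partner of MLX, stayed at or below 8.4 and was not tested.

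**Figure D2:**
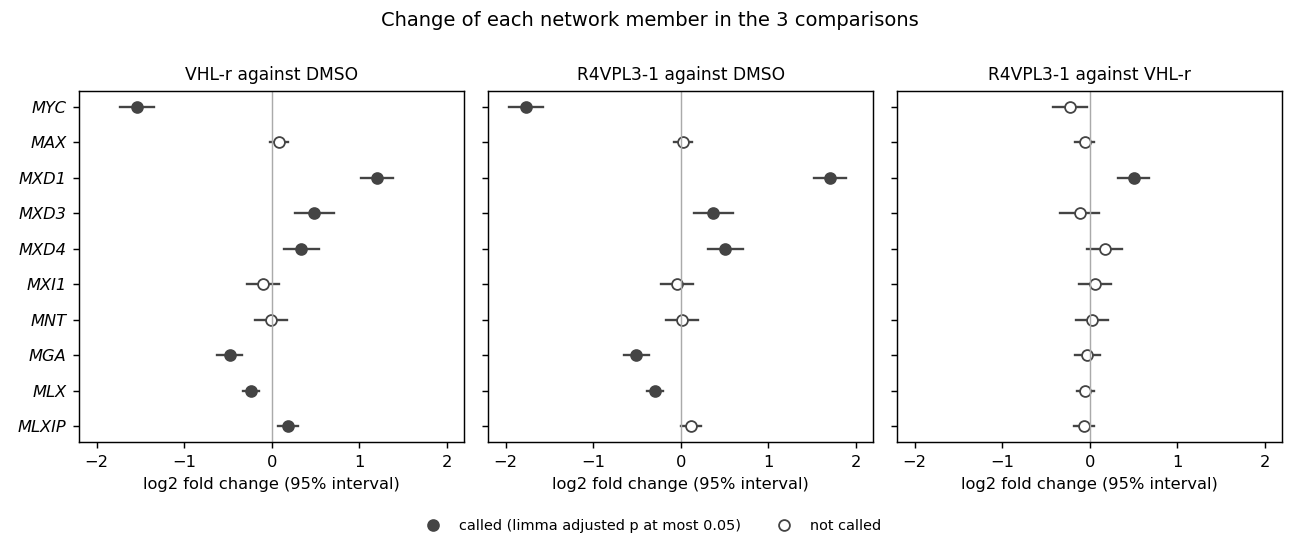
Log2 fold changes (x axis) of the 10 members in the 3 comparisons, with 95% intervals as lines and filled points for genes with a limma adjusted p of at most 0.05. MYC at -1.54 and -1.77 and MXD1 at 1.21 and 1.71 stand farthest from 0 against DMSO, and in the comparison of the compounds the filled point is that of MXD1.

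Counted by libraries, the groups did not overlap for 4 members higher and 3 lower with VHL-r, where MAX took the place of MXD4, and for 3 higher and 3 lower with R4VPL3-1. Among all genes tested such separation was found for 17.1% higher and 17.2% lower with VHL-r, and for 19.1% higher and 18.9% lower with R4VPL3-1. Between the compounds MXD1 alone was separate, against 6.99% of all genes higher and 7.11% lower. The median log2 fold change of the 10 members was 0.04 with VHL-r and 0.02 with R4VPL3-1, close to the median over all genes of -0.01 in each, because members moved in both directions.

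Both compounds share the VHL-binding moiety and were given at the same dose and time, and their comparison was made as 1 pair. For the 9 members not called, the log2 difference of R4VPL3-1 from VHL-r lay between -0.23 for MYC and 0.17 for MXD4. The 95% interval was -0.16 to 0.04 for MAX, -0.34 to 0.11 for MXD3, -0.03 to 0.37 for MXD4, -0.12 to 0.24 for MXI1 and -0.15 to 0.21 for MNT. It was -0.17 to 0.12 for MGA, -0.14 to 0.04 for MLX and -0.18 to 0.04 for MLXIP. The comparisons of the 2 compounds with DMSO use the same 3 DMSO libraries.

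To compare members with each other, normalized counts were divided by the kilobases of the union of each gene's exons. On that scale MLX had the highest level in all groups, with a mean of 785 per kb in DMSO, 665 with VHL-r and 642 with R4VPL3-1. MAX ranked 2 throughout, between 280.3 and 297 per kb in the group means. MYC ranked 5 of 10 in DMSO at 194 per kb, where it overlapped with MLXIP at 206, and ranked 8 with VHL-r at 66.4 and 9 with R4VPL3-1 at 56.9. Its level then overlapped with that of MGA in both treatments and with that of MXD3 in R4VPL3-1. MXD1 ranked 8 in DMSO at 83.3 per kb, overlapping with MGA and MXD4, 5 with VHL-r at 192 and 3 with R4VPL3-1 at 275, where it overlapped with MAX and MLXIP. The overlap with MAX depended on the length used. With the longest transcript as length, MXD1 lay at 261 to 373 per kb in R4VPL3-1, below MAX at 554 to 572. With that length MYC ranked 9 in both treatments and overlapped with MXD3 in both. It then overlapped with MGA in R4VPL3-1 but lay apart from MGA in VHL-r.

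The 7 members that pair with MAX in place of one another, MYC among them, were set as shares of their summed level per kb. MYC made up 25.8%, 25.8% and 20.3% of that sum in the DMSO libraries, 7.93%, 9.15% and 8.27% with VHL-r, and 5.71%, 7.57% and 6.18% with R4VPL3-1. MXD1 made up 10.7%, 10.1% and 9.95% in DMSO, 24.7%, 25.3% and 23.3% with VHL-r, and 35.7%, 30.8% and 26.9% with R4VPL3-1. The order of these partners was thus exchanged, from MYC above MXD1 in each DMSO library to MXD1 above MYC in each treated one. The ratio of MXD1 to MYC per kb was 0.432 ± 0.0505 (SD, n = 3) in DMSO, 2.9 ± 0.189 with VHL-r and 4.89 ± 1.19 with R4VPL3-1. The summed level moved less, with means of 811.5 per kb in DMSO, 786 with VHL-r and 878 with R4VPL3-1. With the longest transcript of each gene as its length, MXD1 ranked 5 with R4VPL3-1, MYC made up 24.4%, 8.89% and 7.0% in the group means and the ratio of MXD1 to MYC was 0.3, 2.01 and 3.39. These are shares of mRNA, and protein was not measured in these libraries.

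**Figure D3:**
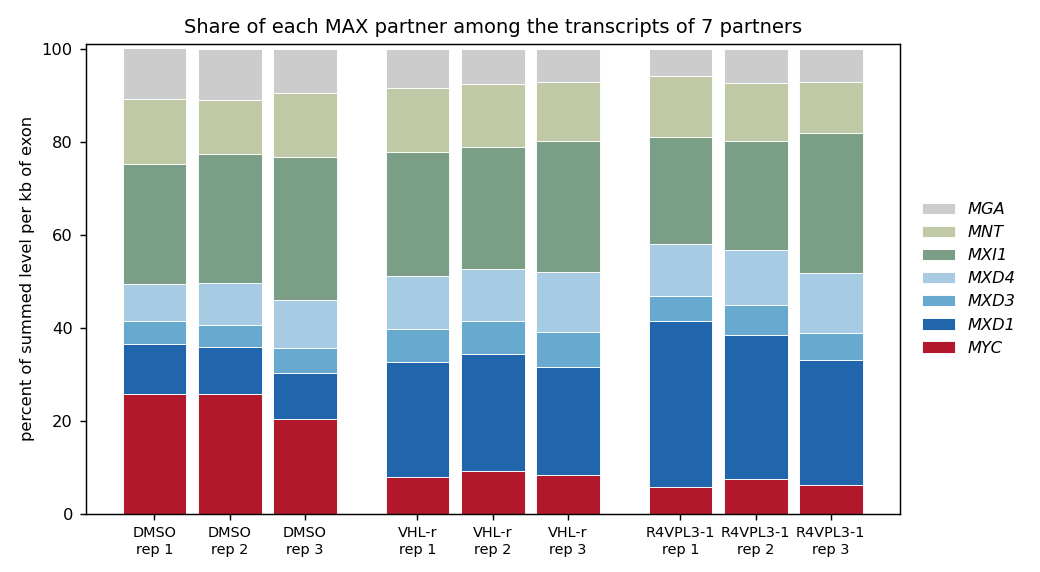
Share of each of 7 MAX partners (colours) in their summed normalized count per kb of exon (y axis, percent) in each of the 9 libraries (x axis). The MYC share at the base lies between 20.3% and 25.8% in DMSO and between 5.71% and 9.15% in the treated libraries, and the MXD1 share above it lies between 9.95% and 10.7% in DMSO and between 23.3% and 35.7% in the treated ones.

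The genes most alike to MYC over the 9 libraries, by the root mean square difference of centred log2 values, were SLITRK6, ZNF608, AMIGO2, FLRT3 and HHEX, at differences of 0.116 to 0.161 against a root mean square of 0.795 for MYC itself. SLITRK6 fell from a mean of 3796 normalized counts in DMSO to 1359.7 with VHL-r and 1163 with R4VPL3-1, and ZNF608 from 1102.5 to 333 and 300.2. The genes most alike to MXD1 were IER5, HERPUD1, SESN2, ZFP36 and SLFNL1-AS1, at 0.102 to 0.161 against 0.727 for MXD1. IER5 had means of 1441, 3400.2 and 4940.5 in DMSO, VHL-r and R4VPL3-1, and HERPUD1 of 1349.7, 2718 and 3817. VEZF1, MBNL2 and DNAH5 were most alike to MGA, CHST14, GNE and MMP2 to MLX, and MARK2, C2CD2L and NOP56 to MLXIP. LRIF1, OSER1-DT and USP2 were most alike to MXD4, and C3orf62 and RNF19B were among those most alike to MXD3.

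MYC protein was not measured in these libraries, and the compounds were given for 2 h only. Most genes that MYC is known to activate moved little while its mRNA fell. Of 45 such genes for ribosome production, nucleotide and amino acid supply and the cell cycle, 40 were tested, and NOP2, PPAN, IMPDH2, EIF4A1 and CCND2 were listed at 0 in all 9 libraries. Other genes on the same strand share 54.4% of the exon bases of NOP2, 49.2% of PPAN, 32.8% of IMPDH2, 47.4% of EIF4A1 and 12.5% of CCND2. The counting could have left such reads unassigned, which was not tested, so a listed 0 does not show that a gene was silent. Of the 40, 2 were called higher and 6 lower with VHL-r, which is 5.0% and 15.0% of them, beside the 10.3% and 9.51% over all genes, and 1 was called higher without DMSO replicate 2 or VHL-r replicate 2. With R4VPL3-1, 4 were higher and 8 lower, which is 10.0% and 20% beside 13.1% and 11.8% over all genes, and without DMSO replicate 1 or R4VPL3-1 replicate 1 4 were lower. Between the compounds HSPD1, a mitochondrial chaperone, was called higher in R4VPL3-1 (log2 fold change 0.24, limma adjusted p = 0.0016), and without VHL-r replicate 1 CAD was as well. Their log2 fold changes had a median of -0.04 with VHL-r and -0.05 with R4VPL3-1. TFAP4, which encodes a transcription factor that MYC induces, fell with both compounds (log2 fold changes -0.50 and -0.39, limma adjusted p = 1.95e-05 and 0.0002). POLR1B, a subunit of RNA polymerase I, fell from a mean of 3425 to 2787 and 2822 (-0.30 and -0.28, adjusted p = 6.81e-05 and 0.0001). GRWD1, a ribosome assembly factor, fell from 5282 to 4511 and 4359.9. In R4VPL3-1, TERT, the telomerase catalytic subunit, rose from 186 to 249.9 (0.42, adjusted p = 0.0194) and CAD, which starts pyrimidine synthesis, from 6259 to 7745 (0.31, adjusted p = 0.000483).

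The genes listed as repressed by MYC moved more. Of 12 listed, all but CDKN2B were tested, and of these 11, 7 rose and 1 fell with VHL-r, 9 rose and 1 fell with R4VPL3-1, and 5 were higher in R4VPL3-1 than in VHL-r. That is 63.6% higher with VHL-r beside 10.3% of all genes, 81.8% with R4VPL3-1 beside 13.1%, and 45.5% between the compounds beside 1.14%, while the 1 that fell is 9.09% of the list beside 9.51% and 11.8% of all genes called lower. The list was chosen with earlier results of these data known, so the shares are not independent of those results. The median log2 fold change was 0.35, 0.61 and 0.25 in the 3 comparisons, against medians over all genes of -0.01 in each. SESN2, a stress-induced inhibitor of growth signalling, rose from a mean of 600.2 to 1578 with VHL-r (log2 fold change 1.39, limma adjusted p = 2.43e-11) and 2256 with R4VPL3-1 (1.91, adjusted p = 7.46e-14). DDIT3, a transcription factor of the unfolded protein response, rose from 274.5 to 384 (0.48, adjusted p = 0.00392) and 1241 (2.15, adjusted p = 9.8e-12). CCNG2, an atypical cyclin, GADD45B, a stress-response gene, and CEBPA, a differentiation factor, also rose with both compounds, CCNG2 from 158.5 to 247 and 352, GADD45B from 728 to 1070.0 and 1565, and CEBPA from 37.05 to 68.4 and 63.7. CDKN1B, the cell cycle inhibitor p27, was the exception and fell from 1191 to 794 and 798 (-0.58 and -0.57, adjusted p = 5.42e-06 and 4.2e-06). DDIT3, SESN2, GADD45B and CCNG2 are also known as stress-induced genes independently of MYC. These 4 and GADD45A were the 5 genes higher in R4VPL3-1 than in VHL-r, a comparison in which MYC was not called (limma adjusted p = 0.37). The part of MYC in the rises of the list was not tested.

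All 5 target genes of MLXIP and MLX rose with VHL-r, and 4 rose and 1 fell with R4VPL3-1. Among all genes 10.3% rose with VHL-r, and 13.1% rose and 11.8% fell with R4VPL3-1. These target genes, too, were chosen with earlier results of these data known. TXNIP, an inhibitor of glucose uptake and the best-known MondoA target, rose from a mean of 1470.1 normalized counts to 4415 with VHL-r (3.0-fold, limma adjusted p = 8.33e-12) and 6613 with R4VPL3-1 (4.5-fold, adjusted p = 2.39e-14). It was also higher in R4VPL3-1 than in VHL-r (log2 fold change 0.58, adjusted p = 6.7e-05). ARRDC4, a relative of TXNIP, rose from 315 to 657.5 and 729 (log2 fold changes 1.06 and 1.21, adjusted p = 3.42e-09 and 2.46e-10). PFKFB3 and HK2, which act in glycolysis, rose less, PFKFB3 by 0.26 and 0.18 and HK2 by 0.17 and 0.48 on the log2 scale. KLF10, a transcription factor induced by TGF-beta, rose from 2169 to 2719 with VHL-r (log2 fold change 0.33, adjusted p = 0.00212) but fell to 1732 with R4VPL3-1 (-0.33, adjusted p = 0.0018), and it differed between the compounds (-0.66, adjusted p = 5.45e-06).

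Among the corepressors that the MXD proteins and MNT recruit, 4 of 15 SIN3 subunits were called higher and none lower with VHL-r, and 3 higher and none lower with R4VPL3-1. The shares called higher were 26.7% and 20%, beside 10.3% and 13.1% of all genes, while 9.51% and 11.8% of all genes were called lower. Those called higher were ARID4A (log2 fold changes 0.72 and 0.64), ING1 (0.48 and 0.46) and SAP30 (0.31 and 0.47) in both treatments and ARID4B (0.17) with VHL-r. The median of the list was 0.04 and 0.02. Counted by libraries, 6 subunits lay higher and 3 lower without overlap with VHL-r, beside 17.1% and 17.2% of all genes. With R4VPL3-1 it was 4 higher and 5 lower, beside 19.1% and 18.9%. SIN3A was among those lower in both (-0.14 each) but was not called (limma adjusted p = 0.0604 and 0.0553). Without VHL-r replicate 1, 2 subunits were called lower with VHL-r, and 1 without DMSO replicate 2 or R4VPL3-1 replicate 3. With R4VPL3-1, 1 was called lower without DMSO replicate 2 or VHL-r replicate 1. Of the 10 subunits of PRC1.6 outside MGA, RYBP rose with both compounds, from a mean of 1764 to 2941 (0.74, limma adjusted p = 5.58e-10) and 2868 (0.70, adjusted p = 6.08e-10). CBX3 fell from 14809 to 13419 with R4VPL3-1 (-0.14, adjusted p = 0.0167), a call that was lost without DMSO replicate 2, R4VPL3-1 replicate 1 or R4VPL3-1 replicate 2. With each compound 10.0% of the 10 PRC1.6 subunits were called higher, beside 10.3% and 13.1% of all genes. With R4VPL3-1 10.0% were called lower, beside 11.8% of all genes, and with VHL-r none was.

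Of 12 coactivators of MYC, the acetyltransferase KAT5 fell with both compounds (log2 fold changes -0.26 and -0.28, limma adjusted p = 0.00285 and 0.0012). EP400, CREBBP and EP300 rose with R4VPL3-1 by 0.27, 0.23 and 0.17, and none of the 3 was called without DMSO replicate 2 and EP400 alone was without R4VPL3-1 replicate 1 or 2. BPTF was called higher with VHL-r at 0.19 (adjusted p = 0.047), a call that was lost with no filter, with a mean of at least 50, with limma's robust option, and without DMSO replicate 1, DMSO replicate 2, VHL-r replicate 1 or R4VPL3-1 replicate 2. Of 18 genes for the turnover of MYC protein, the ubiquitin ligase HUWE1 rose with both compounds (0.24 and 0.42, adjusted p = 0.0169 and 8.23e-05), as did PPP2R5A, a subunit of phosphatase 2A (0.20 and 0.22, adjusted p = 0.0121 and 0.00562). GSK3B, the kinase that marks MYC for degradation, rose with VHL-r by 0.16 (adjusted p = 0.0263), and without DMSO replicate 2 or VHL-r replicate 1 PPP2R5A alone of the list was called with VHL-r. Of the 18 turnover genes, 16.7% were called higher with VHL-r and 11.1% with R4VPL3-1, beside 10.3% and 13.1% of all genes. None was called lower, beside 9.51% and 11.8% of all genes. Of 8 other factors of the protein family of MYC, none rose, and 2 fell with VHL-r and 3 with R4VPL3-1, which is 25% and 37.5% beside 9.51% and 11.8% of all genes called lower. With 10.3% and 13.1% of all genes called higher, a count of 0 among 8 is near the background. MITF, the melanocyte master regulator, fell from 1722 to 1047 and 1011.5 (-0.71 and -0.77, adjusted p = 4.02e-05 and 9.87e-06), and USF1 fell with R4VPL3-1 by 0.17 (adjusted p = 0.0384). TFAP4 fell as given above and is counted both here and among the genes that MYC activates.

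The libraries held between 26435568 and 32085626 reads assigned to genes, so the members rest on at least 174 normalized counts in every library. Of the markers of melanoma cells, SOX10 lay between 7900.4 and 17935 normalized counts and fell with both compounds as given above, S100A1 between 1856 and 2349, the pigment gene DCT between 914 and 1782 and PAX3 between 480.1 and 661. Of the other pigment genes, TYR lay at or below 2.14 and PMEL at or below 36.8, and MLANA was listed at 0 in all libraries, as were EIF4A1 and other genes that every cell uses. TYRP1 lay at 33.6 in R4VPL3-1 replicate 1 and at or below 6.3 in every other library. AXL, NGFR and EGFR, known from resistant melanoma cells, lay at or above 453.6 in each library. Markers of other cell types were near 0, with PTPRC of leukocytes at or below 11.8, PECAM1 of endothelium at or below 10.1 and KRT5 of epithelium at or below 24.2.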

How the data were processed

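RNA from A375R cells was selected for poly(A), made into strand-specific libraries and sequenced as single reads. Per the labels and the methods, the authors used STAR for alignment to GRCh38 and htseq-count (reverse strand setting) for gene counts, which they divided by DESeq2 (1.36.0) size factors. The deposited values are thus a normalized signal, reads per gene over a size factor, with 2 decimals. Of the values above 0 and up to 1000, 100.0% lay within 0.02 normalized counts of a whole number of reads times the worth of 1 read in that library.

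limma (3.58.1, R 4.3.3, trend option) was fitted to log2(value + 1) for 15230 genes (mean value of 10 or more), in a single-factor fit of all 9 libraries. The threshold for a call was an adjusted p (Benjamini-Hochberg) of 0.05 or less. Fold changes are on the log2(value + 1) scale. The statistics were tested on simulated data. Alternatives were pseudocounts of 0.1 and 5, no filter, a mean of at least 50, TMM factors, the robust option, the replicate number as a block, recovered reads tested by edgeR (4.0.16) or by DESeq2 (1.42.0), only the 6 libraries compared, and each library left out. The DESeq2 scaling deposited and TMM factors were within 0.8% of each other.

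All members are named, as are up to 5 called genes of each list, every tested gene of lists of at most 5, and the genes with the smallest root mean square difference from each called member. The members, lists and tests were chosen with earlier results of these data known. Gene lengths and positions came from GENCODE 44, whose coordinates matched the deposited table for all members and, among the genes of the lists, for all but MYCL and SREBF2. Promoter windows came from RefSeq (GRCh38.p14). No value column was left unmapped (0 of them). The authors' own comparisons were not used.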

Additional observations from a re-analysis of the deposited data

How the results depend on the processing

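Pseudocount, filter, TMM factors, limma's robust option, the replicate block, edgeR, DESeq2 and a fit of only the 6 libraries compared changed no call and no direction of the 10 members in any of the 3 comparisons. The block of replicate numbers left all 30 member results on their side of the threshold. Same-numbered libraries of different groups deviated together with r between -0.00559 and 0.121, over 0.1 in 2 of 9 pairs. For libraries with different numbers r lay between -0.148 and 0.0982. In both other groups, 4 of 9 libraries correlated best with their own number. These values do not settle whether the numbers mark pairs, and the main fit did not use them. With each library left out, the number of members called higher with VHL-r ranged from 2 to 4, and was 2 without DMSO replicate 2 and without VHL-r replicate 3. The cause was not tested.

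Directions turned only for members that were not called. Against DMSO with VHL-r, MNT ranged from -0.109 to 0.045 and was 0.028 without DMSO replicate 1, 0.045 without DMSO replicate 3 and 0.004 without VHL-r replicate 3 on the log2 scale. With R4VPL3-1, MXI1 ranged from -0.145 to 0.057 and was 0.057 without DMSO replicate 3 and 0.025 without R4VPL3-1 replicate 2, and MNT ranged from -0.081 to 0.119 and was -0.081 without DMSO replicate 2 and -0.072 without R4VPL3-1 replicate 1. Between the compounds, MXI1 ranged from -0.043 (without R4VPL3-1 replicate 3) to 0.127, MNT from -0.061 (without R4VPL3-1 replicate 1) to 0.131 and MGA from -0.075 to 0.045, and MGA was 0.045 without VHL-r replicate 1 and 0.039 without R4VPL3-1 replicate 1.

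Over all alternatives the log2 fold change of MYC lay between -1.63 and -1.50 with VHL-r and between -1.88 and -1.72 with R4VPL3-1. That of MXD1 lay between 1.18 and 1.22 and between 1.57 and 1.83, and between 0.36 and 0.62 for R4VPL3-1 against VHL-r. The adjusted p of MYC between the compounds ranged from 0.0934 to 0.866. CASC11, at 6.08 normalized counts or fewer, was too low to be tested at this depth.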
